A study of Mus musculus with 2 samples.

Results

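Adipocyte identity, lipid storage and cholesterol handling were described for 35 genes, chosen by their known roles, among the 21905 genes listed in both single-cell tables of mouse bone. All 35 genes were listed in both tables, and each had at least 1 UMI (unique molecular identifier, an RNA molecule counted once per gene and cell) in either library. Female mice aged 12 weeks received doxorubicin (Doxo, 10 mg/kg), a DNA-damaging anthracycline used as chemotherapy, or its vehicle (Veh), and cells were taken from femurs and tibias 96 h later. Bone fragments were digested with collagenase, CD45-positive blood cells were removed with magnetic beads, and a sort then depleted cells with CD45, CD71 and Ter119 (and, in the labels, CD31, an endothelial protein). Each condition gave 1 droplet-based 3′ library. Neither the number nor the strain of the mice behind each library is given for this experiment in the sources used here. With 1 library per condition, treatment and library cannot be told apart, no test was made, and the intervals below, all at 95%, reflect counting error alone.

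Fat cells and the stromal cells that can become them share a small set of transcription factors, with PPARγ at its center, that switch on genes for taking up fatty acids, linking them into triglycerides and coating the lipid droplet. In bone marrow, Cxcl12-abundant reticular (CAR) cells, the stromal cells that support blood stem cells, belong to this adipocyte lineage and express adiponectin. Synthesis of cholesterol and fatty acids is driven by SREBP transcription factors, which INSIG proteins hold back when sterol is plentiful, whereas LXR receptors raise the pumps that carry cholesterol out of the cell. The study asked which bone-resident cells become senescent after chemotherapy, and the 35 genes are described here across those cells.

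The tables held 2488 cells per library, with 24859672 UMIs in Veh and 20792024 in Doxo and medians of 8693 and 7347 UMIs per cell. Cells were clustered without the 35 genes and named from marker lists, so class names are written as "like" a cell type. CAR-like cells numbered 365 in Veh and 419 in Doxo, with medians of 6226 and 7263 UMIs. There were 1089 and 1341 bone and cartilage fibroblast-like cells, 431 and 265 arteriolar and endosteal fibroblast-like cells, 220 and 138 osteoblast-like cells, 237 and 201 chondrocyte-like cells and 103 and 69 endothelial-like cells. The remaining cluster, with 43 Veh and 55 Doxo cells, stayed unnamed. Endothelial-like cells were present in both libraries although the labels name a CD31 depletion. RNA of red blood cells stood apart between the libraries: 6 erythroid genes summed to between 178 and 699 CPM (UMIs per 1000000 UMIs of the class) in the named classes of Veh and to at most 11.4 CPM in Doxo. Mitochondrial RNA had a median of 2.81% of a CAR-like cell's UMIs in Veh and 4.09% in Doxo. Genes induced by dissociation summed to 13112 CPM in Veh and 11188 CPM in Doxo CAR-like cells, and the 8 osteoblast markers there to 7548 and 2149 CPM. The part of these differences in the results below was not tested.

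The 8 CAR markers, which include Cxcl12, Lepr and Ebf3, summed to 33725 CPM in the Veh and 40382 CPM in the Doxo CAR-like cells, and all 8 had UMIs in both. Of 8 markers of mature adipocytes that are not among the 35 genes, 7 were listed, and they summed to 98.4 CPM in Veh and 284 CPM in Doxo CAR-like cells. Pck1, which makes glycerol backbones in fat cells, was at 0 in both. The 7 markers summed to 804 CPM in Veh and 760 CPM in Doxo osteoblast-like cells, so their sum is not particular to CAR-like cells and does not by itself mark a fat cell.

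Where the genes were highest differed by role. In Veh, CAR-like cells had the highest level, in CPM, of 14 of the 35 genes, and for 8 of these the counting interval lay apart from that of the next class. In Doxo, CAR-like cells led for 18 genes, 12 of them apart from the next class. The 18 include Cidec, Plin4 and Gpd1, with 11, 20 and 20 UMIs there, and Cfd, with 58 of its 88 UMIs in 1 cell. The same counts were not made over all genes, and intervals narrow as a class holds more UMIs. These counts therefore only describe where the 35 genes were highest. Adipoq, which encodes the hormone adiponectin, was at 2942 CPM in Veh and 3578 CPM in Doxo CAR-like cells and at no more than 120 CPM in any other class. Lpl, the lipase that frees fatty acids from lipoproteins, and Apoe, a lipoprotein component that carries cholesterol, also led there in both libraries. Endothelial-like cells led for 8 genes in Veh and 9 in Doxo, among them Fabp4 (4640 and 5497 CPM), Cd36 (197 and 383 CPM), Abca1 and Abcg1. Chondrocyte-like cells led for Hmgcs1, Sqle, Insig1 and Fasn, the genes of sterol and fatty acid synthesis, in both libraries, and in Doxo also for Scd1 and Scd2. Fasn was at 34.1 CPM in Veh and 35.3 CPM in Doxo chondrocyte-like cells, Scd1 at 100.8 and 117 CPM and Scd2 at 95.3 and 108 CPM. The leading class was the same in both libraries for 25 of the 35 genes.

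**Figure D1:**
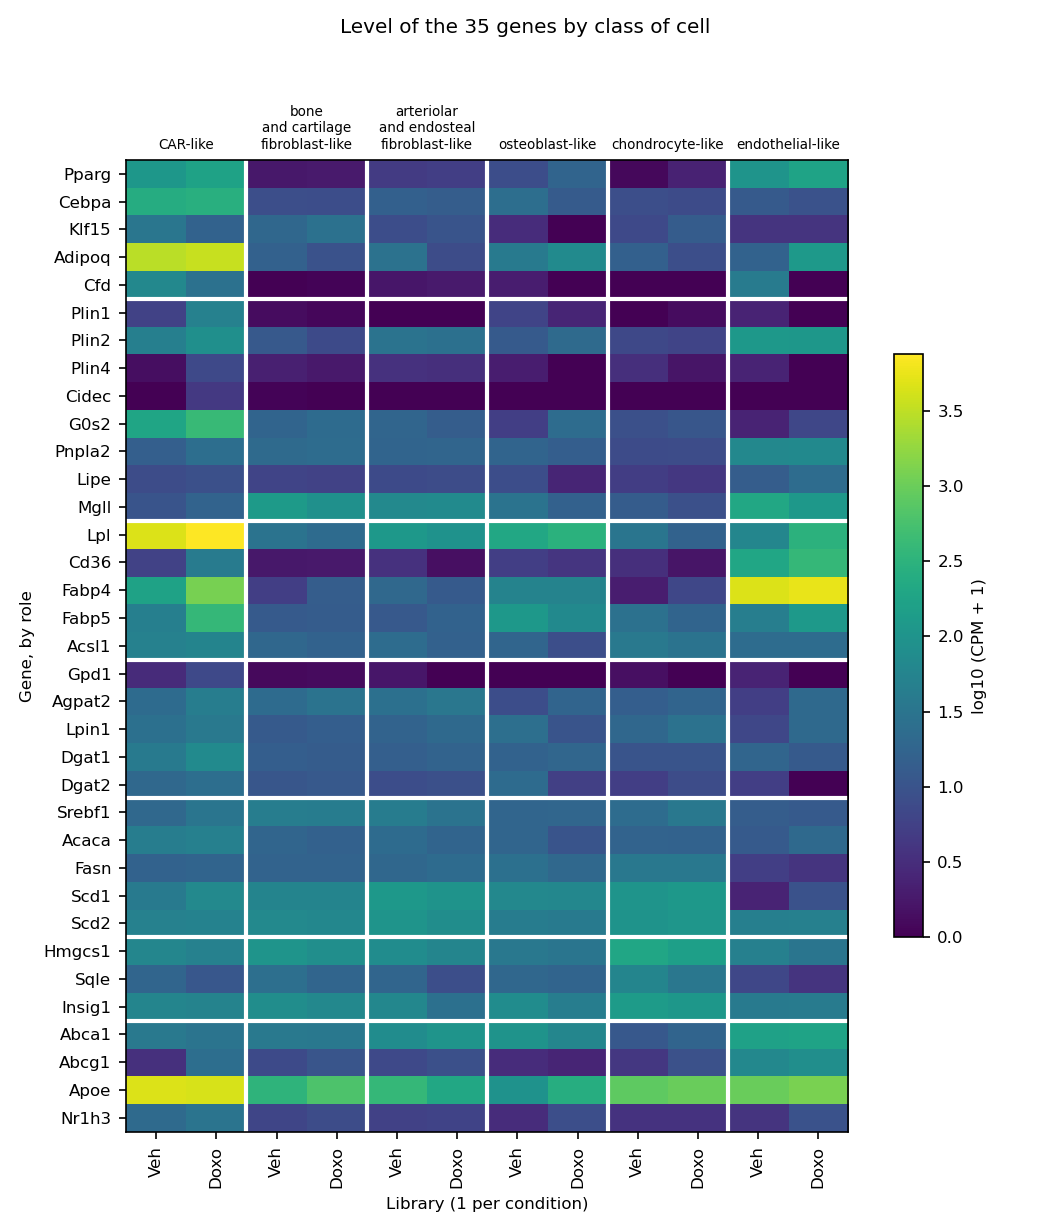
Level of each of the 35 genes (rows, grouped by role) in the 6 named classes of the Veh and the Doxo library (columns), as the log10 of CPM + 1 by color, from dark (low) to yellow (high). Adipoq, Lpl and Apoe are brightest in CAR-like cells of both libraries and Fabp4 in endothelial-like cells, while Hmgcs1 and Insig1 are brightest in chondrocyte-like cells.

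Among the 35 genes, 15 were at least 1.5-fold higher in the CAR-like cells of Doxo than in those of Veh, and 3 were at least 1.5-fold lower. A gene was counted only if it had at least 50 UMIs over both libraries of the class, and 31 of the 35 did. The 4 others, Plin4, Cidec, Lipe and Gpd1, had too few, and a gene that is rare in Veh could reach this number only through Doxo, and the reverse. Among the higher genes, Plin1, Cd36, Abcg1, Pnpla2, Mgll and Srebf1 had under 50 UMIs in Veh and reached it only with those of Doxo. Among all 9369 genes with enough UMIs in CAR-like cells, 10.0% were at least 1.5-fold higher and 7.98% at least 1.5-fold lower. The median log2 ratio of Doxo to Veh was 0.49 over the 31 genes and 0.05 over all 9369. By role, the medians ran from 2.81 for fatty acid uptake and binding, 0.83 for the droplet coat and lipolysis and 0.71 for glyceride synthesis down to 0.20 for cholesterol efflux, 0.12 for transcription factors and secreted products, 0.11 for fatty acid synthesis and -0.26 for sterol synthesis and sensing. Under 12 other settings the number of higher genes ran from 12 to 17 and that of lower genes from 2 to 3. Among these settings, a lower minimum of 20 UMIs cannot change the ratio of a gene already counted. Plin1, Plin2, G0s2, Cd36, Fabp4, Fabp5, Agpat2, Dgat1 and Abcg1 were counted as higher under each of the 12, whereas Pparg, Pnpla2, Mgll, Lpl, Srebf1 and Scd1, and all 3 lower genes, fell short under at least 1.

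**Figure D2:**
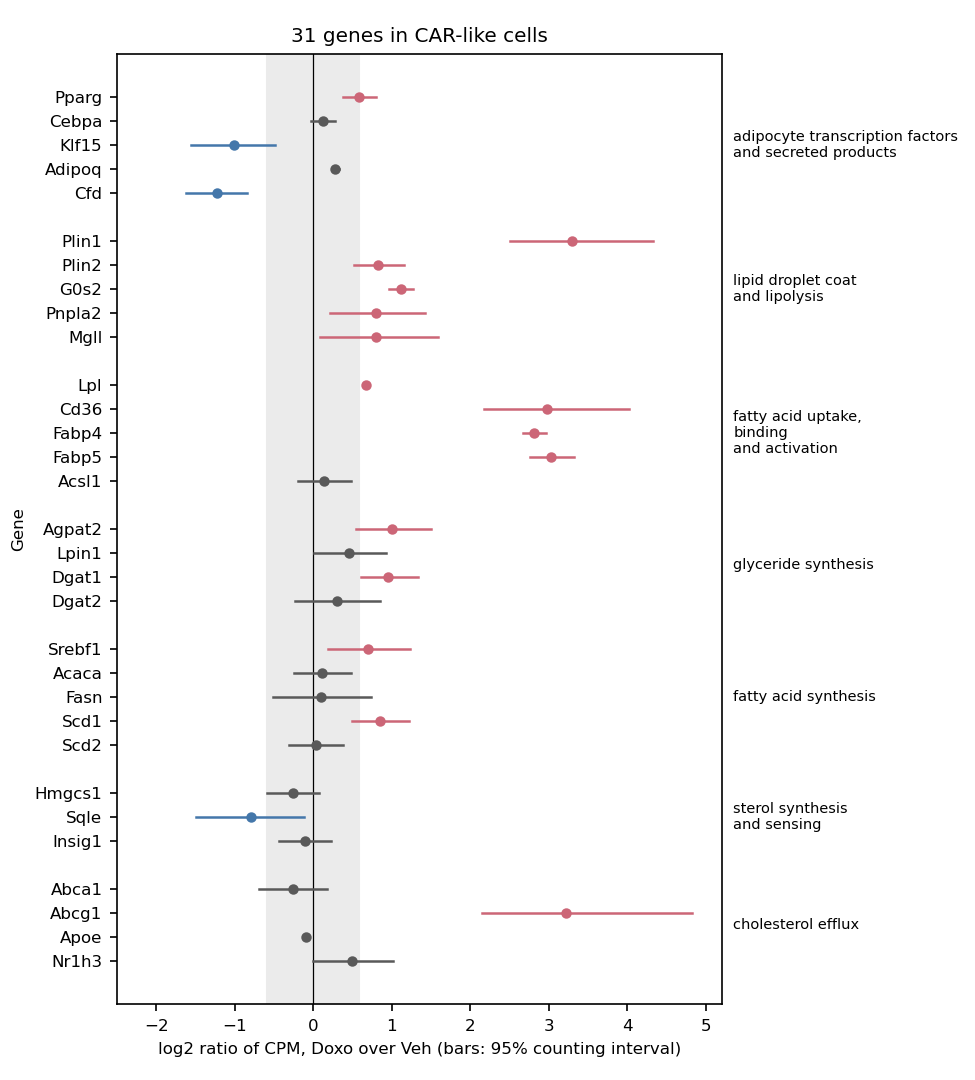
Log2 ratio of Doxo to Veh in CAR-like cells (horizontal axis) for the 31 genes with at least 50 UMIs, grouped by role, with 95% counting intervals as bars, ratios within 1.5-fold in the gray band, genes counted as higher in red and as lower in blue. Cd36, Fabp4, Fabp5, Plin1 and Abcg1 lie between 2.81 and 3.30, whereas the 3 sterol genes lie below 0.

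Among the 5 genes of fatty acid uptake, binding and activation, 4 were higher in Doxo CAR-like cells, with a median log2 ratio of 2.81, beside 10.0% of all genes counted there. Of the 4, Cd36 met the minimum of UMIs only through Doxo. FABP4 and FABP5 carry fatty acids inside the cell, and FABP4 is a classical product of PPARγ in fat cells. Fabp4 had 428 UMIs (172 CPM) in Veh and 3942 UMIs (1211 CPM) in Doxo, a log2 ratio of 2.81 with an interval of 2.67 to 2.96. Fabp5 had 114 UMIs (45.8 CPM) in Veh and 1224 UMIs (376 CPM) in Doxo, a log2 ratio of 3.03 (2.76 to 3.33). Over the other settings the ratio of Fabp5 ran from 2.10, with the stricter filter on cells, to 3.11, and that of Fabp4 from 2.67 to 3.40. Both counting intervals lie far above 0, and the levels do not overlap between the libraries for either gene. They are neighbors on GRCm38, with Fabp5 on the plus strand at chr3:10012548-10016607 and Fabp4 on the minus strand at chr3:10204088-10208576, 187.5 kb apart. Between them lie Fabp9 and Pmp2, members of the same gene family, and both had 0 UMIs in the CAR-like cells of both libraries.

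CD36 is a membrane receptor that takes up long-chain fatty acids. Cd36 (chr5:17781690-17888801, minus strand) had 12 UMIs (4.82 CPM) in Veh and 128 UMIs (39.3 CPM) in Doxo, a log2 ratio of 2.97 (2.17 to 4.02). Its ratio ran from 2.58 to 3.43 over the other settings, and to 5.07 without the 5% of cells richest in the genes. Lpl (chr8:68880491-68907448, plus strand) started from a far higher level, with 11723 UMIs (4710 CPM) in Veh and 24469 UMIs (7517 CPM) in Doxo, and its log2 ratio was 0.67 (0.64 to 0.71). Lpl was found in nearly every CAR-like cell of both libraries, 355 of 365 in Veh and 416 of 419 in Doxo, with medians of 24 and 47 UMIs per cell. Acsl1, which activates fatty acids with coenzyme A, was at 50.2 CPM in Veh and 55.3 CPM in Doxo (log2 ratio 0.14, -0.20 to 0.48), a difference that was not detectable at this depth.

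Promoter sequences from the 250 bases before to 50 bases after a gene's start were taken from RefSeq (build GRCm38.p6) and matched for 25 of the 35 genes. They were searched on both strands for TCACNCCAC, the letters bound by SREBP, for CCAAT, the letters bound by NF-Y, and for the PPAR element, a direct repeat of AGGTCA with a 1-base spacer. The PPAR element was in none of the 36 promoters of these 25 genes and in 0.0396% of all 32851 promoters. No promoter was matched for Fabp4, Fabp5, Lpl, Abcg1, Dgat1, Dgat2, Gpd1, Scd1, Scd2 and Sqle, so these were not searched. Of the genes of fatty acid uptake, binding and activation, only Cd36 and Acsl1 were searched, and both had a promoter with a CCAAT match. That of Cd36 is shown because Cd36 was among the genes with the largest ratios. It covers chr5:17835847-17836146 on the minus strand, inside the span of the gene given above, so it belongs to an internal start. The matching letters are in capitals:
Cd36: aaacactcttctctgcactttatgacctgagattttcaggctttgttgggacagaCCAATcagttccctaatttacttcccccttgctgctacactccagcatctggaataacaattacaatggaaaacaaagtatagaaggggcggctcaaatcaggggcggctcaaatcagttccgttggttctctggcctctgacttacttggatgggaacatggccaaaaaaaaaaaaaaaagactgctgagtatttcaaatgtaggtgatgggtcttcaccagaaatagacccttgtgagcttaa
CCAAT was in 13 of the 36 promoters of the 25 genes (36.1%) and in 37.4% of all promoters. These matches describe the letters only.

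All 5 genes of the droplet coat and lipolysis that had enough UMIs in CAR-like cells were higher in Doxo, with a median log2 ratio of 0.83. Of all genes counted there, 10.0% were higher. Plin1, Pnpla2 and Mgll had under 50 UMIs in Veh and met the minimum only with their Doxo UMIs. The count and the median are therefore in part set by this minimum. Perilipins coat the lipid droplet, and perilipin 1 is the form typical of fat cells. Plin1 (chr7:79720218-79732903, minus strand) had 12 UMIs (4.82 CPM) in Veh and 160 UMIs (49.2 CPM) in Doxo, a log2 ratio of 3.30 (2.51 to 4.33). The ratio of Plin1 was 2.27 in cells thinned to 2000 UMIs and 5.09 without the 5% of cells richest in the genes. Plin2, the perilipin found in most cells with droplets, had 116 UMIs (46.6 CPM) and 270 UMIs (83.0 CPM), a log2 ratio of 0.83 (0.51 to 1.16). Both coat genes were higher in Doxo, Plin1 from a level near the limit of detection. Plin4 had 1 UMI in Veh and 20 in Doxo, in 1 and 18 cells. Cidec, whose product fuses droplets in fat cells, was listed with 11 UMIs, all in 3 cells of the Doxo class, whereas the 365 cells of Veh held 0. A floor of 3 counts allows a share of up to 0.822% of Veh cells with a Cidec UMI, which says nothing of cells that express it without a UMI.

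G0s2, which encodes an inhibitor of the lipase ATGL, had 465 UMIs (187 CPM) in Veh and 1321 UMIs (406 CPM) in Doxo, a log2 ratio of 1.12 (0.97 to 1.27). The lipase itself, Pnpla2, was at 14.1 CPM in Veh and 24.6 CPM in Doxo (0.79, 0.22 to 1.42). Inhibitor and lipase were therefore both higher in Doxo, on counts of 35 and 80 UMIs for the lipase. Mgll, which splits the last fatty acid from glycerol, had 23 and 53 UMIs (0.80, 0.09 to 1.59). Its ratio was below 0 in thinned cells (-0.44) and in cells chosen by markers (-0.65). The latter had UMIs of at least 2 of Cxcl12, Lepr and Ebf3. They numbered 762 in Veh and 725 in Doxo, and so include cells outside the CAR-like class. Lipe, which encodes hormone-sensitive lipase, had 17 and 26 UMIs and was not counted. G0s2 shares bases with Lamb3 on the opposite strand, and the strand setting of the authors' counting is not given in the sources used here, so reads of the 2 genes may not be told apart. The same holds for Plin4 with Hdgfl2 and for Srebf1 with Rai1.

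Of the adipocyte transcription factors, Pparg was higher in Doxo by little more than the limit, with 281 UMIs (113 CPM) in Veh and 552 UMIs (170 CPM) in Doxo, a log2 ratio of 0.59 (0.38 to 0.80). Over the other settings its ratio ran from 0.42 to 1.14. Cebpa, the partner of Pparg in fat cell differentiation, was at 252 CPM in Veh and 274 CPM in Doxo (0.12, -0.02 to 0.28). Pparg and Cebpa thus differed far less between the libraries than Fabp4, Plin1 and Cd36. Klf15, a factor of late fat cell differentiation that also responds to glucocorticoids, was lower in Doxo, at 31.7 and 15.7 CPM (-1.01, -1.56 to -0.49). Its ratio ran from -1.52 to -0.19 over the other settings. Adipoq was found in 350 of 365 cells of the Veh library and 406 of 419 of the Doxo library. It had a log2 ratio of 0.28 (0.24 to 0.32) and was not counted.

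Cfd, which encodes the fat cell product adipsin, rested on single cells. It had 158 UMIs in Veh and 88 in Doxo (log2 ratio -1.23, -1.62 to -0.85), but 146 of the Veh UMIs and 58 of the Doxo UMIs came from 1 cell each. Without these cells, an alternative chosen after seeing the data, 12 UMIs remained in Veh and 30 in Doxo, with a log2 ratio of 0.90. The Veh cell held 132 Adipoq, 59 Fabp4, 112 Cxcl12 and 29 Car3 UMIs among its 4561, and the Doxo cell 245 Fabp4, 7 Plin1, 5 Cidec, 173 Car3 and 18 Cxcl12 UMIs among its 6349. Car3 encodes a carbonic anhydrase that is abundant in mature fat cells.

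Of the genes that link fatty acids to glycerol, 2 of the 4 with enough UMIs were higher in Doxo CAR-like cells. Agpat2, the second acyltransferase of the pathway, was at 21.3 CPM in Veh and 43.0 CPM in Doxo (1.01, 0.55 to 1.499). Dgat1, which adds the last fatty acid to make triglyceride, was at 36.6 and 71.3 CPM (0.96, 0.61 to 1.33). Dgat2, which catalyzes the same last step, was at 19.7 and 24.3 CPM (0.30, -0.23 to 0.85) and was not counted, so of the pair only Dgat1 passed the limit. Lpin1, the phosphatidate phosphatase between these steps, was at 26.1 and 35.9 CPM (0.46, 0.01 to 0.92). Gpd1, which supplies the glycerol backbone, had 5 UMIs in Veh and 20 in Doxo. Agpat2 overlaps Egfl7, an endothelial gene on the opposite strand, and the 8 endothelial markers, Egfl7 among them, summed to 39.0 CPM in Veh and 16.6 CPM in Doxo CAR-like cells. The part of Egfl7 reads in the values of Agpat2 was not tested.

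Fatty acid synthesis was split. Scd1, which places the first double bond in fatty acids, was at 36.6 CPM in Veh and 66.0 CPM in Doxo (0.85, 0.49 to 1.22). In the cells chosen by markers, which extend beyond the CAR-like class, its ratio was -0.19. Srebf1, which encodes the SREBP that drives fatty acid genes, was at 19.3 and 31.3 CPM (0.69, 0.19 to 1.23), and its ratio ran from 0.11 to 0.89 over the other settings. Of the other enzymes that Srebf1 is known to drive, Fasn, the fatty acid synthase, was at 15.7 and 16.9 CPM (0.10, -0.51 to 0.74), and Acaca, which makes its substrate, at 43.4 and 47.0 CPM (0.11, -0.25 to 0.48). Scd2, a desaturase close to Scd1, was at 50.2 and 51.6 CPM (0.04, -0.30 to 0.39). Acaca is uncertain in a further way, since its last 400 bases are identical to the pseudogene Gm5182.

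The 3 genes of sterol synthesis and sensing all had ratios below 0 in CAR-like cells, with a median of -0.26, and 1 passed the limit. Sqle, squalene epoxidase, had 44 UMIs (17.7 CPM) in Veh and 33 UMIs (10.1 CPM) in Doxo (-0.80, -1.499 to -0.12). Hmgcs1, which makes HMG-CoA, was at 59.9 and 50.1 CPM (-0.26, -0.59 to 0.07). Insig1, the sterol-sensitive brake on SREBP, was at 56.2 and 52.2 CPM (-0.11, -0.44 to 0.23). The intervals of Hmgcs1 and Insig1 include 0, so no difference was detectable for them in these cells, and the ratio of Insig1 ran from -0.18 to 0.12 over the other settings.

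Of the cholesterol efflux genes, Abcg1 stood alone. Abcg1 (chr17:31057675-31117988, plus strand), a pump that hands cholesterol to HDL, had 6 UMIs (2.41 CPM) in Veh and 79 UMIs (24.3 CPM) in Doxo, a log2 ratio of 3.23 (2.15 to 4.82). Its ratio was 2.20 in the cells chosen by markers. In thinned cells it was 5.26, where Veh had no UMI and the value depends on the 0.5 UMI added to each sum. Abca1, the pump that loads lipid-poor apolipoprotein, was at 35.4 and 29.5 CPM (-0.26, -0.69 to 0.17). Both pumps are targets of LXR, and only Abcg1 passed the limit. Nr1h3, which encodes LXRα, was at 20.9 and 29.5 CPM (0.49, -0.004 to 1.01). It overlaps Gm13783 on the same strand, and what this overlap does to its values was not tested. Apoe, at 4705 and 4418 CPM, had a log2 ratio of -0.09 (-0.13 to -0.06), a small difference that its 11709 and 14382 UMIs resolve from counting error. Over the other settings its ratio ran from -0.19 to 0.39, so its direction depended on the setting.

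Within CAR-like cells, the genes with the largest ratios were found in more cells of the Doxo library. Fabp4 was found in 60 of the 365 cells of Veh (16.4%) and in 185 of the 419 cells of Doxo (44.2%), and with each cell thinned to 2000 UMIs in 9.20% and 32.8%. In chondrocyte-like cells, which should lack Fabp4, a UMI was found in 2.11% of Veh and 6.97% of Doxo cells at medians of 19653 and 14604 UMIs per cell, so the shares in CAR-like cells lay above the background seen in that class. Fabp5 was found in 18.1% of Veh and 46.8% of Doxo CAR-like cells (8.05% and 27.0% when thinned). Bone and cartilage fibroblast-like cells, at medians of 9724 and 7311 UMIs, had Fabp5 in 7.25% and 7.38%. Cd36 was found in 2.19% of Veh and 12.9% of Doxo CAR-like cells, Plin1 in 1.92% and 10.7%, and Abcg1 in 1.64% and 11.9%. When thinned, these shares were 0.57% and 5.15% for Cd36, 0.86% and 4.41% for Plin1, and 0 of 348 Veh cells and 4.41% of 408 Doxo cells for Abcg1. In chondrocyte-like cells, which are deeper, Cd36 was found in 3.38% of Veh and 0.995% of Doxo cells. Plin1 was found there in 0 of 237 and 0.498%, and Abcg1 in 5.06% and 9.95%. The Veh shares of Cd36 and Abcg1 in CAR-like cells lay below these, and the shares alone are not read as expression. The 8 Veh CAR-like cells with Cd36 mostly held other genes of the list as well, Plin1 in 6 and Fabp4 in 7. The Doxo share of Abcg1 was above that of chondrocyte-like cells by little, and when thinned the latter were 1.73% in Veh and 0.508% in Doxo. G0s2 was found in 45.8% and 69.0% of CAR-like cells (27.6% and 41.4% when thinned), and in 7.59% and 11.4% of chondrocyte-like cells. Among the 31 genes with at least 50 UMIs, the share of CAR-like cells with a UMI was larger in Doxo for 27, and so it was for 6933 of all 9369 genes (74%), with the Doxo cells at the larger median depth. When thinned, it was larger for 25 of the 31 and for 53.2% of all genes. The exact binomial intervals of the unthinned shares lay apart with Doxo above for 13 of the 31 genes and 14.5% of all genes, and those of the thinned shares for 7 of the 31 and 2.86% of all. Thinned shares lay apart with Veh above for 1 of the 31 genes and 2.66% of all. These intervals cover counting over the cells of 1 library each and not the spread between animals.

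**Figure D3:**
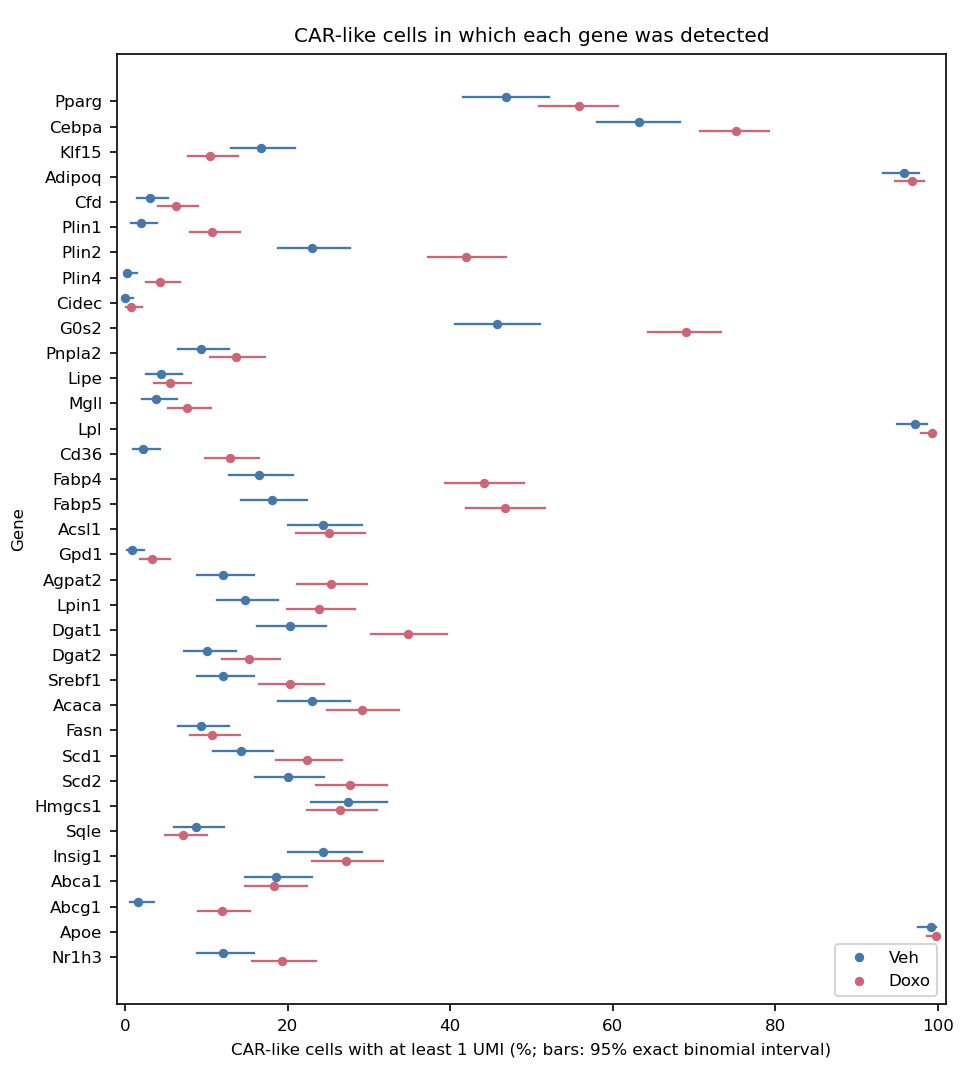
Share of CAR-like cells with at least 1 UMI of each gene, in percent (horizontal axis), in Veh (blue) and Doxo (red), with 95% exact binomial intervals as bars. The Doxo points of Fabp4 and Fabp5 lie at 44.2% and 46.8% and the Veh points at 16.4% and 18.1%, whereas Lpl and Apoe are near 100% in both libraries.

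Fabp4 was unevenly spread among CAR-like cells. The 5% of cells with most Fabp4 held 82.2% of its UMIs in Veh and 57.5% in Doxo, and cells with at least 10 Fabp4 UMIs numbered 8 in Veh and 80 in Doxo. Leaving out the single cell with most UMIs of each gene gave a Fabp4 log2 ratio of 3.02. Leaving out the 5% of cells richest in the genes other than Lpl, Apoe and Adipoq gave 3.40, with 15 genes higher and 2 lower. Both alternatives were chosen after seeing the data.

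**Figure D4:**
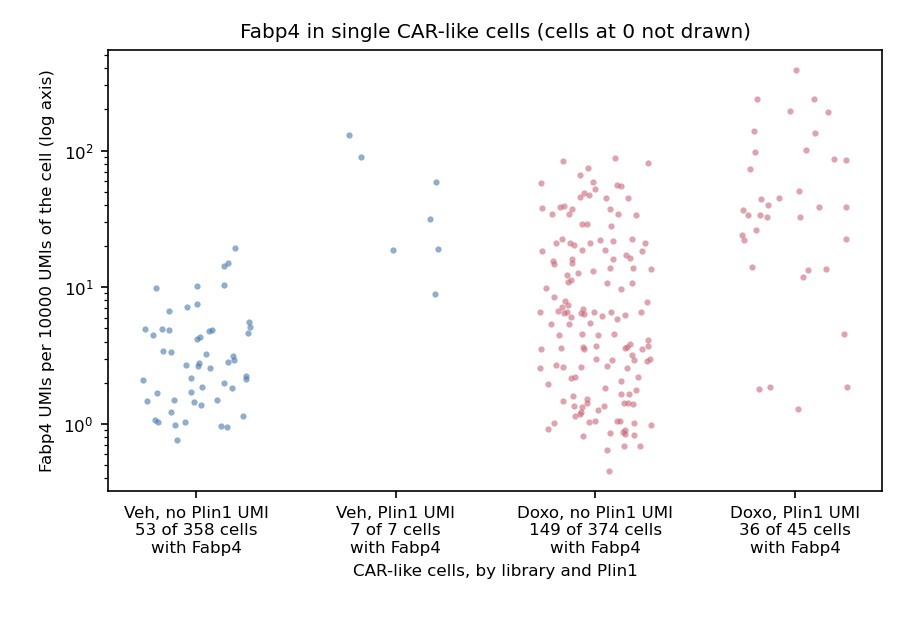
Fabp4 UMIs per 10000 UMIs of the cell (log axis) in single CAR-like cells, 1 point per cell with Fabp4, for Veh (blue) and Doxo (red) cells without and with a Plin1 UMI; points are spread sideways at random and cells at 0 are not drawn. Cells with Fabp4 make up 53 of 358 and 7 of 7 in Veh and 149 of 374 and 36 of 45 in Doxo, and in both libraries the highest cells have a Plin1 UMI.

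Cells with a Plin1 UMI were examined for the other genes they held. CAR-like cells held 7 of the 13 Plin1 cells of the Veh library and 45 of the 49 of the Doxo library. In the 7 Veh cells, Fabp4 was found in 7, Cd36 in 6, Fabp5 in 3 and G0s2 in 4. In the 45 Doxo cells, Fabp4 was found in 36 (80.0%), Cd36 in 28 (62.2%), Fabp5 in 36 and G0s2 in 44. In these cells Fabp4 was at 4767 CPM in Veh and 4755 CPM in Doxo, Cd36 at 191 and 192 CPM and Lpl at 10620 and 10375 CPM, while Fabp5 was at 191 and 1305 CPM and Adipoq at 8428 and 3766 CPM. The 7 Veh cells are few, and no more than their values can be given. Cells without a Plin1 UMI also had more Fabp4 in Doxo, at 73.1 CPM in the 358 Veh cells and 629 CPM in the 374 Doxo cells, and more Fabp5, at 42.7 and 224 CPM. The 8 CAR markers summed to 34531 and 36786 CPM in Plin1 cells of Veh and Doxo, against 33708 and 40973 CPM in the cells without. The mature adipocyte markers summed to 1583 and 1074 CPM in Plin1 cells and to 66.5 and 155 CPM in the others. Endothelial markers summed to 95.3 and 19.6 CPM in Plin1 cells and to 37.8 and 16.1 CPM in the others, and macrophage markers to 19.1 and 50.1 CPM against 88.7 and 32.5 CPM. Osteoblast markers were lower in Plin1 cells, at 610 and 1453 CPM against 7698 and 2264 CPM, and so were genes induced by dissociation, at 1964 and 7238 CPM against 13352 and 11837 CPM. Their part in the values of Plin1 cells was not tested. Plin1 cells were the deeper ones, with medians of 7814 and 9509 UMIs against 6153.5 and 7016.

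The CAR-like cells split into 3 sub-clusters, of which the second was the highest for Il6, Ccl2, Cxcl1, Cxcl2 and Gdf15, genes of inflammatory signaling. It held 111 Veh and 63 Doxo cells, the first held 243 and 339, and the third 11 and 17. Fabp4 was higher in Doxo in all 3, at 216 and 1400 CPM in the first, 127 and 545 CPM in the second and 64.0 and 767 CPM in the third. Fabp5, Lpl and G0s2 had the same direction in each, with Lpl at 5192 and 8199 CPM, 4333 and 6087 CPM, and 2868 and 4366 CPM. Plin1 cells lay mostly in the first sub-cluster, 6 of 7 in Veh and 41 of 45 in Doxo. Without the inflammatory sub-cluster, 12 genes were higher and 3 lower, with a median log2 ratio of 0.36.

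A further list of 95 genes of lipid metabolism, none of them among the 35, had 94 genes in the tables. In CAR-like cells 70 had enough UMIs, and 10 were higher and 10 lower in Doxo, with a median log2 ratio of 0.10. Lipid droplet genes of this list had 2 of 6 higher and none lower (median 0.57), and adipocyte differentiation genes 3 of 7 higher and 1 lower (0.18). Genes of fatty acid uptake had 0 of 7 higher and 2 lower (0.03), and those of cholesterol synthesis 2 of 19 higher and 3 lower (-0.11), beside the 10.0% and 7.98% of all genes. The largest ratio above 0 was that of Slc2a4, the insulin-responsive glucose transporter, with 12 and 53 UMIs (1.71). Fitm2, which helps droplets bud from the endoplasmic reticulum, followed at 7.63 and 24.0 CPM (1.62), then Aqp7, the glycerol channel of fat cells, with 64 and 208 UMIs (1.31), and Cpt1a, which brings fatty acids into mitochondria, with 25 and 80 UMIs (1.27). The largest ratio below 0 was that of Cebpb, an early factor of fat cell differentiation that also responds to inflammation, with 2499 and 1076 UMIs, or 1004 and 331 CPM (-1.60). Acsl3 (87 and 46 UMIs, -1.30) and Acsl4 (122 and 82 UMIs, -0.96), relatives of Acsl1 that activate fatty acids, and Fdft1, squalene synthase (31 and 21 UMIs, -0.94), were lower as well.

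In endothelial-like cells, which were few, 3 of the 5 genes of fatty acid uptake, binding and activation were counted as higher in Doxo, namely Lpl, Cd36 and Fabp5. Of 12 genes with enough UMIs, 5 were higher and 1 lower, against 9.16% and 7.69% of all 3681 genes counted in this class, and the median log2 ratio was 0.37 against 0.01. Cd36 was at 197 CPM in Veh and 383 CPM in Doxo (0.96, 0.61 to 1.31), Pparg at 101.3 and 177 CPM (0.81, 0.29 to 1.32) and Fabp5 at 44.2 and 123 CPM (1.47, 0.77 to 2.19). Fabp4, which was already at 4640 CPM in Veh, was at 5497 CPM in Doxo (0.24, 0.16 to 0.33) and was not counted. Genes that led in this class but lay within the limit were Plin2 (115.6 and 111 CPM), Pnpla2 (62.8 and 68.6 CPM), Abca1 (166 and 174 CPM) and Abcg1 (62.8 and 80.0 CPM), and Lipe had 9 and 8 UMIs. Of the neighboring pair, only Fabp5 passed the limit here, while both did in CAR-like cells. Mgll was lower, at 210 and 117 CPM (-0.83, -1.38 to -0.33). Lpl had 42 UMIs in Veh and 108 in Doxo (2.35, 1.84 to 2.92), of which 70 in Doxo came from 1 cell, and without the top cells its ratio was 1.38. Adipoq had 11 and 42 UMIs (2.89, 1.95 to 4.04), of which 40 in Doxo came from 1 cell, and without the top cells its ratio was -0.89. The 8 CAR markers summed to 895 CPM in Veh and 2411 CPM in Doxo endothelial-like cells, and the 8 endothelial markers to 5776 and 5672 CPM. The part of CAR RNA in these ratios was not tested.

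In bone and cartilage fibroblast-like cells, the largest class, Apoe stood out. Of 28 genes with enough UMIs, 2 were higher and 2 lower, against 2.75% and 6.29% of all 11310 genes counted, and the median log2 ratio was -0.03 against -0.08. Apoe was at 334 CPM in Veh and 623 CPM in Doxo (0.90, 0.84 to 0.96), and its ratio stayed between 0.70 and 0.98 over the other settings. Fabp4 had 48 and 139 UMIs (1.58, 1.11 to 2.10), but with a stricter filter on cells its ratio was -0.73. Adipoq (170 and 91 UMIs, -0.84) and Plin2 (122 and 70 UMIs, -0.74) were lower. In this class, Adipoq was found in about 4% of cells, and 44 of its 170 Veh UMIs came from 1 cell. The 3 sterol genes, Sqle (-0.50), Insig1 (-0.34) and Hmgcs1 (-0.28), lay below 0 by more than counting error, and none passed the limit.

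In arteriolar and endosteal fibroblast-like cells, no gene was counted as higher in Doxo. Of 24 genes with enough UMIs, 0 were higher and 5 lower, against 4.68% and 6.85% of all 9171 genes counted, with a median log2 ratio of -0.27 against -0.01. Insig1 was at 60.8 CPM in Veh and 25.9 CPM in Doxo (-1.22, -1.67 to -0.81), Sqle at 17.2 and 7.39 CPM (-1.18, -2.10 to -0.42) and Hmgcs1 at 76.3 and 56.8 CPM (-0.42, -0.74 to -0.12). All 3 sterol genes were thus lower, 2 of them past the limit. With each cell thinned to 2000 UMIs, Insig1 and Sqle fell short of the limit, at -0.54 and -0.39. Apoe was at 385 and 208 CPM (-0.89, -1.04 to -0.74), the opposite direction from bone and cartilage fibroblast-like cells. Its ratio fell short of the limit in thinned cells (-0.47) and with every cell weighing the same (-0.48). Adipoq (119 and 15 UMIs, -1.97) and Fabp4 (82 and 25 UMIs, -0.72) were lower too. Of the Veh UMIs, 43 of Adipoq and 33 of Fabp4 came from 1 cell each, and without the top cells the ratios were -1.43 and -0.44.

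Chondrocyte-like cells, where sterol genes were highest, had 4 genes higher and 5 lower of 22 with enough UMIs, against 11.2% and 10.0% of all 8321 genes counted, and medians of 0.03 and 0.04. Sqle had 268 UMIs (56.8 CPM) in Veh and 103 UMIs (33.9 CPM) in Doxo (-0.74, -1.08 to -0.41), and it was counted as lower under all 9 other settings of this class. Hmgcs1 was at 193 and 155 CPM (-0.31, -0.48 to -0.15) and Insig1 at 132 and 112 CPM (-0.23, -0.43 to -0.04). All 3 lay below 0 by more than counting error, and only Sqle passed the limit. Klf15 went the other way from CAR-like cells, at 6.14 and 12.5 CPM (1.02, 0.29 to 1.78), with 29 and 38 UMIs, and was counted as higher under all 9 settings. Srebf1 (0.65), Abca1 (0.64) and Lpin1 (0.59) were counted as higher as well, but each fell short under at least 1 other setting, with lowest ratios of 0.13, 0.51 and 0.46. Lpl (148 and 48 UMIs, -0.98), Adipoq (-0.91), Fabp5 (-0.68) and Mgll (-0.62) were lower, and the ratio of Lpl was 0.23 in thinned cells. Genes induced by dissociation summed to 10876 CPM in Veh and 23786 CPM in Doxo chondrocyte-like cells, and to 10043 and 13927 CPM in arteriolar and endosteal fibroblast-like cells. Whether they bear on the sterol genes was not tested.

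Osteoblast-like cells had UMIs enough for 10 genes only, with 2 higher and 3 lower, against 14.8% and 11.5% of all 3670 genes counted, and medians of -0.05 and 0.06. Apoe (90 and 170 UMIs, 1.44) and Adipoq (37 and 47 UMIs, 0.87) were higher, and Insig1 (-0.81), Fabp5 (-0.72) and Abca1 (-0.72) lower. None of the 5 was counted under every other setting. Of the 110 Fabp5 UMIs in Veh, 91.8% came from 1 cell, and without the top cells the ratio was 2.45. The CAR markers summed to 789 CPM in Veh and 2095 CPM in Doxo in this class, and the part of CAR RNA in the values of Apoe and Adipoq was not tested.

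**Figure D5:**
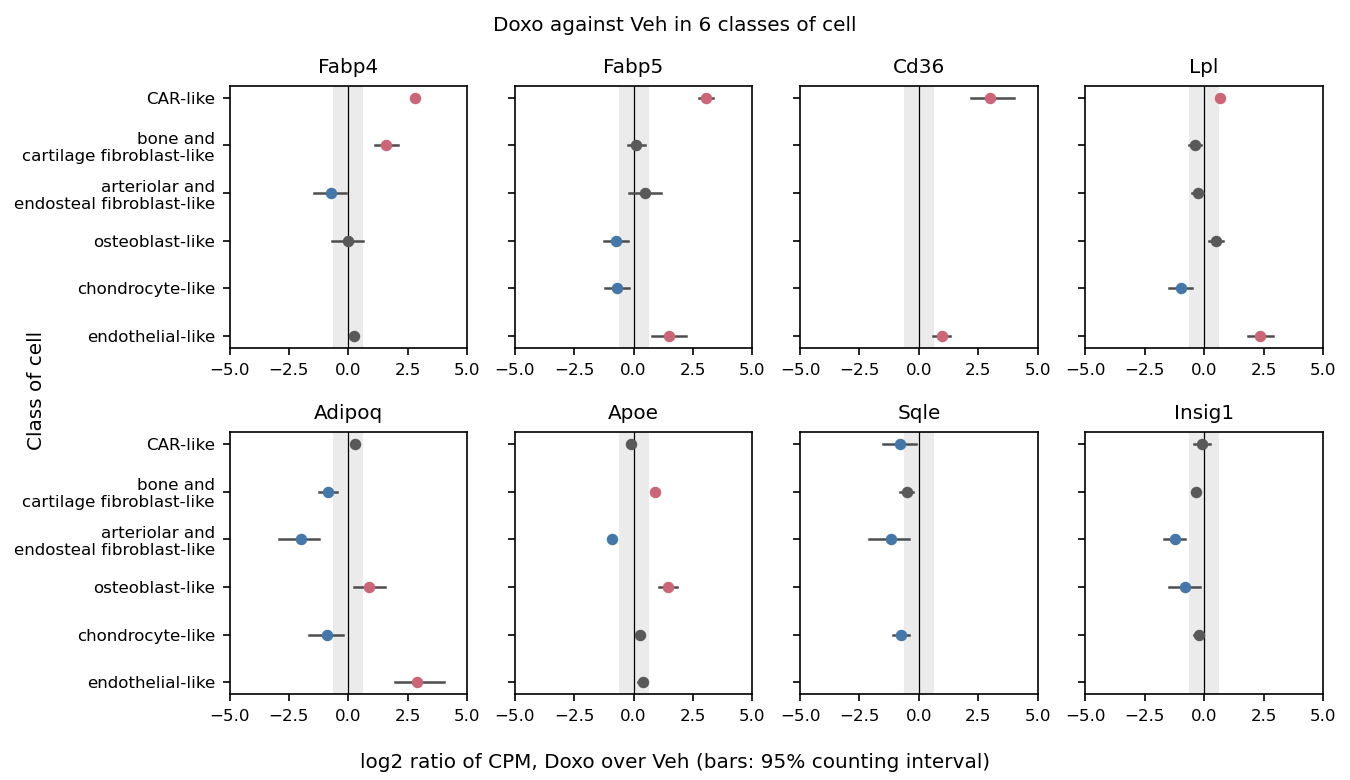
Log2 ratio of Doxo to Veh (horizontal axes) of 8 genes in the 6 named classes (rows), with 95% counting intervals as bars, ratios within 1.5-fold in the gray band, genes counted as higher in red and as lower in blue, and no point where a gene had under 50 UMIs. Fabp4, Fabp5 and Cd36 have their largest ratio in CAR-like cells, where Sqle and Insig1 lie below 0 as they do in both fibroblast-like classes and in chondrocyte-like cells.

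The sterol genes were followed further in the 23 other genes of cholesterol synthesis and SREBP regulation. In arteriolar and endosteal fibroblast-like cells, 18 of these had enough UMIs, and 0 were higher and 6 lower (median -0.50), against 4.68% and 6.85% of all genes there. Among them were Idi1 (-1.26), Fdft1 (-1.25), Cyp51 (-1.16) and Fdps (-0.90), enzymes of the pathway, and the sterol carrier gene Stard4 (-0.61). In chondrocyte-like cells, against 11.2% and 10.0% of all genes, 1 of 17 was higher, Lss (0.80), and 6 were lower (median -0.46), namely Cyp51 (-1.13), Sc5d (-0.91), Hsd17b7 (-0.86), Fdft1 (-0.80), Fdps (-0.71) and Idi1 (-0.68). Idi1, Fdft1, Cyp51 and Fdps were counted as lower in both classes. In bone and cartilage fibroblast-like cells, 0 of 22 were higher and 2 lower (-0.26), against 2.75% and 6.29% of all genes, and in CAR-like cells 2 of 19 were higher and 3 lower (-0.11), against 10.0% and 7.98%. Nothing about the list is read from the counts in these 2 classes. The promoters of Hmgcs1 and Insig1 are shown because these genes lay below 0 in each of the classes named in this paragraph. In CAR-like cells their intervals included 0. Matches to TCACNCCAC and CCAAT, on either strand, are in capitals. The Hmgcs1 promoter covers chr13:119690101-119690400 and the Insig1 promoter chr5:28071162-28071461, both on the plus strand of GRCm38.p6:
Hmgcs1: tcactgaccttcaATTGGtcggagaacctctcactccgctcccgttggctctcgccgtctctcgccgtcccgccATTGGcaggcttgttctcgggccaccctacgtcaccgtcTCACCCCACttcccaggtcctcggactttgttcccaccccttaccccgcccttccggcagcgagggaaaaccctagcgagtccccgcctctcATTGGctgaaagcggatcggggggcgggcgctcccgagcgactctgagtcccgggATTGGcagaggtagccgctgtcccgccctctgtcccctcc
Insig1: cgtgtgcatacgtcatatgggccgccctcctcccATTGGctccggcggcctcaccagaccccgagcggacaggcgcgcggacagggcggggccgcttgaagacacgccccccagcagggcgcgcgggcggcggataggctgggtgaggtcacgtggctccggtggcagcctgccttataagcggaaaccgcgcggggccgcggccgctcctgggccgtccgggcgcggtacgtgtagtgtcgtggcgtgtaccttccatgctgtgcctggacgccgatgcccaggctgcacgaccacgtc
The Hmgcs1 promoter held 1 match to TCACNCCAC on the plus strand and 4 to CCAAT on the minus strand, and the Insig1 promoter 1 to CCAAT on the minus strand. TCACNCCAC was in 2 of the 36 promoters of the 25 matched genes, those of Acsl1 and Hmgcs1, in 0 of 22 promoters of the cholesterol synthesis list and in 1.24% of all promoters. CCAAT was in 15 of the 22 promoters of that list (68.2%) and in 37.4% of all promoters. The 22 promoters belong to 16 genes of the list, and no promoter was matched for the others. A match does not make a binding site, and the lack of one says only that these letters are not in the window searched.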

How the data were processed

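Resident cells of mouse bone were measured in 2 droplet-based 3′ single-cell RNA libraries, 1 of Veh and 1 of Doxo, sequenced and aligned with Cell Ranger by the authors. The submitters' processing notes name Cell Ranger and Partek, without versions, and the builds GRCm38 and mm10. The annotation release and the strand setting of the counting are not given in the sources used here. The authors deposited log2 values for each gene in each cell. The values themselves show that scaling of a cell to 1000000, followed by a logarithm, was done 2 times: taken off the log scale, the values of a cell added up to 999972 to 1000027. This was undone, which gave values within 0.1 of whole UMIs for 99.94% of nonzero values up to 50 UMIs. In 19 symbols of Veh and 17 of Doxo the values were not whole, and none was a member of the list of 35.

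All 2488 cells per library met the limits on genes (200 to 10000), UMIs (100 to 100000) and mitochondrial share (10% at most). Both libraries were merged in Seurat 5.3.0 (R 4.3.3) and clustered on 35 principal components of 2000 variable genes, without the 35 genes, at a resolution of 0.1. Endothelial clusters were set aside and the rest clustered again. Clusters took the name of the class that had most of its markers there, with a minimum of 3, where a marker had to be seen in 10% of the cells or more and lie 1 log2 unit or more above other cells. A cluster with 3 markers, none among its 10 leading genes, stayed unnamed, a rule set after the clusters were seen. Names were rebuilt and may differ from the study's. Doublets were kept, no caller was run, and 4 barcodes occurred in both libraries.

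UMIs were summed per class and given as CPM with exact Poisson intervals. For shares of cells the intervals are Clopper-Pearson (exact binomial), and log2 ratios, with 0.5 UMI added to each sum, have exact conditional binomial ones, all at 95%. PCR and droplets add error beyond these. Calculations were checked on simulated data. A list is described by its counts and median beside all genes with at least 50 UMIs in the class. By the rule for named genes, all 35 were named, in CAR-like cells and in the class where they were highest, and of the 95 further lipid genes the 8 with the largest absolute ratios past 1.5-fold in CAR-like cells. The members, lists, markers and settings were chosen with earlier results of these data known. The cholesterol genes named in fibroblast-like and chondrocyte-like cells, and the Plin1 cells, were chosen after their values were seen. Gene coordinates are from GENCODE M21 on GRCm38. Python 3.11.15, numpy 2.4.6, scipy 1.17.1, pandas 2.3.3 and matplotlib 3.10.9 were used.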

Additional observations from a re-analysis of the deposited data

How the results depend on the processing

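Each result was recomputed under 9 alternatives in every class (a clustering that kept the 35 genes, 20 components, a stricter filter on cells, with a minimum of 1000 genes and a maximum of 5% mitochondrial UMIs, cells thinned to 2000 UMIs, every cell weighing the same, all genes centred at 0, the 5% deepest cells left out, a minimum of 20 UMIs, and no top cell per gene) and, in CAR-like cells, under 3 more (cells chosen by markers, no inflammatory sub-cluster, no 5% richest cells). The alternatives without top cells and without the richest cells were chosen after seeing the data. The cells chosen by markers had UMIs of at least 2 of Cxcl12, Lepr and Ebf3 and none of Ptprc. They came from any class but the endothelial-like one, 762 in Veh and 725 in Doxo. Of 1236 single-gene ratios, 111 had another sign than reported, and 23 of these were of genes counted as higher or lower. The 1236 include 127 under the minimum of 20 UMIs, which leaves every single-gene ratio and its call as reported. Those 127 could not change, so they say nothing of how stable a gene's ratio is. Leaving out the 23, 1104 ratios stayed within their 95% interval and 109 moved beyond it. Of the counts and medians, 146 stayed (counts within 1.5 times, medians within the median half-width of a gene's interval) and 25 moved. In CAR-like cells the counts stayed within 1.5 times, at 12 to 17 higher and 2 to 3 lower. There, the ratio of Cfd was 1.02 with the stricter filter, 0.90 without top cells and 0.73 without the richest cells, that of Mgll -0.44 in thinned cells and -0.65 in cells chosen by markers, where that of Scd1 was -0.19.

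In bone and cartilage fibroblast-like cells, 1 gene was lower with 20 components and with equal weights, and with the stricter filter 1 was higher, 5 were lower and Fabp4 was at -0.73. In arteriolar and endosteal fibroblast-like cells, 1 gene was higher with the stricter filter, where Fabp4 was at 0.049, 1 without the deepest cells and 2 in thinned cells. In osteoblast-like cells, clustering with the 35 genes gave 0 higher genes, a median of -0.82, Adipoq at -1.10, Fabp5 at 1.49 and Apoe at -0.97. There, 20 components gave 0 higher and 1 lower, with Fabp5 at 2.03 and Apoe at -0.14, and the stricter filter 0 higher, a median of -1.26, Adipoq at -2.24, Fabp5 at 2.38 and Apoe at -1.91. Equal weights gave 1 lower and Fabp5 at 0.044, the deepest cells left out 1 lower and Fabp5 at 2.61, no top cells 5 higher and Fabp5 at 2.45, and a minimum of 20 UMIs 9 lower. In chondrocyte-like cells, 2 genes were higher when clustered with the 35 genes, 1 with 20 components, 2 with the stricter filter and 7 at 20 UMIs, and 1 was lower with equal weights and 3 without the deepest cells. Lpl was at 0.23 in thinned cells. In endothelial-like cells, 2 genes were lower at 20 UMIs and without top cells, and Adipoq was at -1.86 with the stricter filter, -1.16 without the deepest cells and -0.89 without top cells. The cause of these moves was not tested, apart from the single cells named with their UMIs. No paired analysis was possible because each condition has 1 library and no test was made.

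Counts of under about 50 UMIs leave ratios wide, and osteoblast-like and endothelial-like cells, with few cells and UMIs, limit what can be read there.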

Other observations

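Some genes of mature fat cells outside the 35 were also found in CAR-like cells. Car3, the carbonic anhydrase abundant in mature fat cells, was at 51.8 CPM in Veh and 177 CPM in Doxo. Adrb3, the β3-adrenergic receptor through which fat cells are told to release lipid, was at 14.5 and 21.2 CPM. Pck1, of the same marker list, had no UMI in CAR-like cells of either library. The single cell with most Cfd held 29 Car3 UMIs in Veh and 173 in Doxo. In osteoblast-like cells, the mature adipocyte markers, Car3 among them, summed to 804 CPM in Veh and 760 CPM in Doxo, without a UMI of Adrb3 in either library. Car3 is therefore not read here as the mark of a fat cell.

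Among the other genes of the further lipid list, fatty acid oxidation had 1 of 10 genes higher and 0 lower in CAR-like cells (median log2 ratio 0.16), cholesterol efflux 1 of 8 higher and 1 lower (0.18), fatty acid synthesis 1 of 7 higher and 2 lower (0.00) and glyceride synthesis 0 of 6 higher and 1 lower (0.09). Of all genes in CAR-like cells, 10.0% were higher and 7.98% lower. In the other classes, the whole further list had 1 of 77 genes higher and 4 lower in bone and cartilage fibroblast-like cells, against 2.75% and 6.29% of all genes. It had 3 of 63 and 10 in arteriolar and endosteal fibroblast-like cells (4.68% and 6.85% of all genes) and 4 of 56 and 16 in chondrocyte-like cells (11.2% and 10.0%). In osteoblast-like cells it had 6 of 19 and 1 (14.8% and 11.5%), and in endothelial-like cells 4 of 23 and 1 (9.16% and 7.69%).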
